A study of Mus musculus with 26 samples.

Results

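The response of the mouse inner cell mass (ICM) to a PI3K inhibitor and to FGF4 was examined for non-additivity, that is, for genes whose level under both agents was not the sum of the separate effects. Each of 26 libraries held the polyadenylated RNA of 1 ICM from a CD-1 embryo, and all 26 libraries of the series were used. Embryos were taken at E2.75 (morula stage), before the ICM forms, and were cultured in KSOM medium for 24 hours in 1 of 4 conditions. Of the 26 ICMs, 5 received only the vehicle DMSO and 7 the PI3K inhibitor LY294002 (LY) at a dose of 10 µM. Another 8 received FGF4 plus heparin (FGF4), labelled 1 µg/ml without saying whether that is the dose of FGF4, of heparin or of both, and 6 received LY together with FGF4 plus heparin (LY+FGF4). The zona pellucida was removed and the ICM was isolated by immunosurgery, which lyses the outer cells. Embryos of 5 litters were mixed before they were distributed, and the labels do not tie a library to a litter. No allele other than the outbred strain is named. Heparin was given only together with FGF4, so the effect called FGF4 here is that of the mixture.

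For each gene the departure from additivity was the LY effect in the presence of FGF4 (LY+FGF4 minus FGF4) minus the LY effect in its absence (LY minus DMSO), on the log2(TPM + 1) scale. TPM expresses the share of a gene among the transcripts of its library. A departure of 0 means that the agents multiplied their separate effects, and a departure of 1 means that the level under both was 2-fold above that product (on TPM + 1). The additive level is the value that DMSO, LY and FGF4 predict for the combination. Of 55254 gene symbols, 12034 that reached 1 TPM in 5 or more libraries were tested.

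The ICM of the early blastocyst holds progenitors that become epiblast, the source of the fetus, or primitive endoderm, the source of the yolk sac endoderm. Epiblast cells secrete FGF4, which acts through FGF receptors and the ERK kinases and directs cells towards primitive endoderm. PI3K makes a membrane lipid that recruits the kinase AKT, and the same receptors can feed both branches, so the inhibitor and the ligand meet in 1 signalling network.

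Markers of both ICM lineages were present. Gata6 and Pdgfra, which mark progenitors and primitive endoderm, were above 0 in all 26 libraries (Pdgfra down to 0.4 TPM). The primitive endoderm markers Sox17, Gata4 and Lama1 were above 0 in 22, 21 and 19. Of the epiblast markers, Sox2 was above 0 in 25 libraries, Nanog in 23, Klf2 in 20, Prdm14 in 14 and Fgf4 in 13. Krt8, a keratin of the outer trophectoderm, was also above 0 in all 26 libraries. Of the other trophectoderm markers, Krt18 and Eomes were above 0 in 25 libraries each, Cdx2 in 20 and Gata3 in 14. The summed trophectoderm list ranged from 812 to 1513 TPM in DMSO, 858 to 1233 in LY, 616 to 1444 in FGF4 and 535 to 1317 in LY+FGF4. In whole ICMs, fewer cells of a type and less RNA per cell cannot be told apart. The Y-linked genes Ddx3y, Eif2s3y, Kdm5d and Uty summed to at least 5 TPM in 2 of 5 DMSO and 5 of 7 LY libraries. With FGF4 they did so in 2 of 8 libraries and with both agents in 1 of 6. Libraries with Y-linked transcripts, a sign of male embryos, were thus unevenly spread over the groups. A fit with the Y-linked genes as a covariate is given below, and the part of sex in the departures was not tested further. The number of genes listed at 1 TPM or more also lay below its additive level, a difference that was not tested. It averaged 10772 ± 477 in DMSO (SD, n = 5), 10084 ± 126 in LY (n = 7), 10076 ± 967 in FGF4 (n = 8) and 8654 ± 705 in LY+FGF4 (n = 6), where the additive level was 9389. TPM carries no read number, so the depth behind these values is unknown, and a gene that is absent cannot be told apart from one that was not sampled.

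Departures past the threshold were few. At a Benjamini-Hochberg adjusted p under 0.05, 6 of 12034 genes (0.0499%) departed from additivity, 3 upwards (0.0249%) and 3 downwards (0.0249%). Ybx3, Rcc2 and Wac lay above the additive level, and Serhl, N4bp2 and Kptn lay below it. At an unadjusted p under 0.05 the count was 726 (6.03%), of which 271 were positive (2.25%) and 455 negative (3.78%). The negative majority depended on the setting of the fit. The split was 354 positive and 346 negative after quantile normalization, but 239 positive and 549 negative after median centring. With the number of genes as a covariate it was 487 positive and 345 negative. The median departure of all genes was -0.12, and 5210 of 12034 were positive (43.3%). With that covariate the median was 0.02. The count of 6 was 2 without LY replicate 4 or 8, 3 without DMSO replicate 3 or 8 and 11 without LY+FGF4 replicate 3. It was 28 without the 6 libraries that list fewer than 9000 genes, which leaves 2 LY+FGF4 libraries, and 3 of the 6 genes (Ybx3, Rcc2 and N4bp2) were among these.

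Ybx3 encodes a cold shock domain protein that binds DNA and RNA. It stood at 277.75, 296.08, 345.53, 403.9 and 583.09 TPM in the 5 DMSO libraries. It ranged from 118.71 to 310.79 TPM in LY (median 182.66) and from 67.76 to 147.48 in FGF4 (median 90.905). In LY+FGF4 it ranged from 218.64 to 456.81 TPM, with a median of 317.26. Every FGF4 library was below every DMSO and every LY+FGF4 library, the LY libraries reached into the lower end of DMSO, and the LY+FGF4 libraries overlapped those of DMSO. The LY effect on Ybx3 was -0.98 without FGF4 and 1.70 with it, a departure of 2.68 ± 0.36 (SE, limma adjusted p = 0.000455). The additive level was 46.8 TPM and the observed level 305 TPM (both back-transformed from log2 means), a ratio of 6.40 on TPM + 1.

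Rcc2 encodes a protein of the RCC1 family that acts at the centromere and spindle in mitosis. Its values were 257.28, 309.74, 313.0, 421.03 and 614.84 TPM in DMSO, 13.74 to 96.13 in LY (median 58.54) and 23.05 to 101.62 in FGF4 (median 46.9). Every DMSO library was above every library given 1 agent. In LY+FGF4 it ranged from 39.97 to 282.53 TPM (median 77.8), which overlaps both single-agent groups. The additive level of 4.91 TPM was below each LY+FGF4 library. The departure of Rcc2 was 3.87 ± 0.62 (SE, limma adjusted p = 0.00483), from an LY effect of -2.99 without FGF4 and 0.88 with it. Ybx3 and Rcc2 share this form: the highest mean in DMSO, a lower one with either agent, and with both a mean above that of FGF4 alone.

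Wac showed another form. It encodes an adaptor with a WW domain that takes part in histone H2B ubiquitination and in the regulation of autophagy and mTORC1. Its values were 246.81, 280.82, 294.16, 355.37 and 355.81 TPM in DMSO, 217.18 to 496.11 in LY (median 296.3) and 139.4 to 401.74 in FGF4 (median 297.945). Under both agents they ranged from 810.23 to 1864.04 TPM (median 964.215). All 6 LY+FGF4 libraries lay above all 20 other libraries, and the other groups overlapped one another. The LY effect on Wac was 0.06 without FGF4 and 2.03 with it, a departure of 1.96 ± 0.35 (SE, limma adjusted p = 0.0213). Only 3 of 12034 genes (0.0249%) had every LY+FGF4 library above every other library. Beside Wac these were Pbrm1, a subunit of the PBAF chromatin remodelling complex (departure 2.33, limma adjusted p = 0.363), and the histone deacetylase gene Hdac3 (0.35, limma adjusted p = 0.892), neither of which passed the threshold. Pbrm1 and Hdac3 were named after their values were seen.

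The genes below the additive level were lowest in the combination. Their DMSO medians also lay below those with either single agent, most of all for N4bp2 (12.29 TPM). Serhl, a serine hydrolase-like gene, stood at 7.62, 9.47, 13.07, 28.42 and 39.68 TPM in DMSO, at 7.23 to 74.32 in LY (median 20.13) and at 9.58 to 38.8 in FGF4 (median 21.11). It was listed at 0 in 5 of 6 LY+FGF4 libraries and at 2.16 TPM in the other one. N4bp2, which encodes a NEDD4-binding protein with a polynucleotide kinase domain, stood at 7.6, 8.22, 12.29, 20.29 and 41.16 TPM in DMSO. It ranged from 11.92 to 76.68 TPM in LY (median 42.7), from 6.48 to 87.39 in FGF4 (median 42.575) and from 0 to 6.44 in LY+FGF4 (median 3.62). Kptn encodes kaptin, a subunit of the KICSTOR complex that restrains mTORC1 when amino acids are scarce. It stood at 6.91, 7.32, 12.04, 24.57 and 25.14 TPM in DMSO, at 9.72 to 48.7 in LY (median 12.13) and at 10.19 to 43.08 in FGF4 (median 27.83). It was listed at 0 in 4 of 6 LY+FGF4 libraries and at 4.33 and 4.49 TPM in the others. For Serhl, N4bp2 and Kptn every LY+FGF4 library was below every other library, for N4bp2 only by 6.44 against 6.48 TPM (FGF4 replicate 2). That pattern held for 4 of 12034 genes (0.0332%). The remaining one was Slc25a30, a mitochondrial carrier gene listed at 0 in all 6 LY+FGF4 libraries (limma adjusted p = 0.363), named after its values were seen.

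The departures were -4.34 ± 0.79 for Serhl (limma adjusted p = 0.0213), -4.55 ± 0.86 for N4bp2 (adjusted p = 0.0278) and -4.12 ± 0.80 for Kptn (adjusted p = 0.0387), with SE. Because most of these LY+FGF4 values are 0 or a few TPM, the sizes and the calls depend on the pseudocount. With a pseudocount of 0.1 N4bp2 and Kptn did not pass, with one of 5 Serhl and Kptn did not, and on the square root scale none of the 3 did. Over 15 other settings of the fit Ybx3 and Rcc2 passed in 15, Wac in 12, N4bp2 in 10, Serhl in 9 and Kptn in 6. The 6 calls differed in how they held when 1 library at a time was left out. Ybx3 and Rcc2 passed in 26 of 26 such fits, Wac and Serhl in 22, N4bp2 in 15 and Kptn in 7. Wac was lost without DMSO replicate 3 or 8 or LY replicate 4 or 8, where its adjusted p reached 0.0673, and Serhl without DMSO replicate 7 or 8 or LY replicate 4 or 8, where it reached 0.0631. The adjusted p reached 0.109 for N4bp2 and 0.151 for Kptn. The lower number of genes detected in LY+FGF4 moves with the 3 negative calls, and its part in them was not tested. With the number of genes as a covariate Ybx3, Rcc2, Wac and Serhl passed and N4bp2 and Kptn did not. The same held with the Y-linked genes as a covariate.

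**Figure D1:**
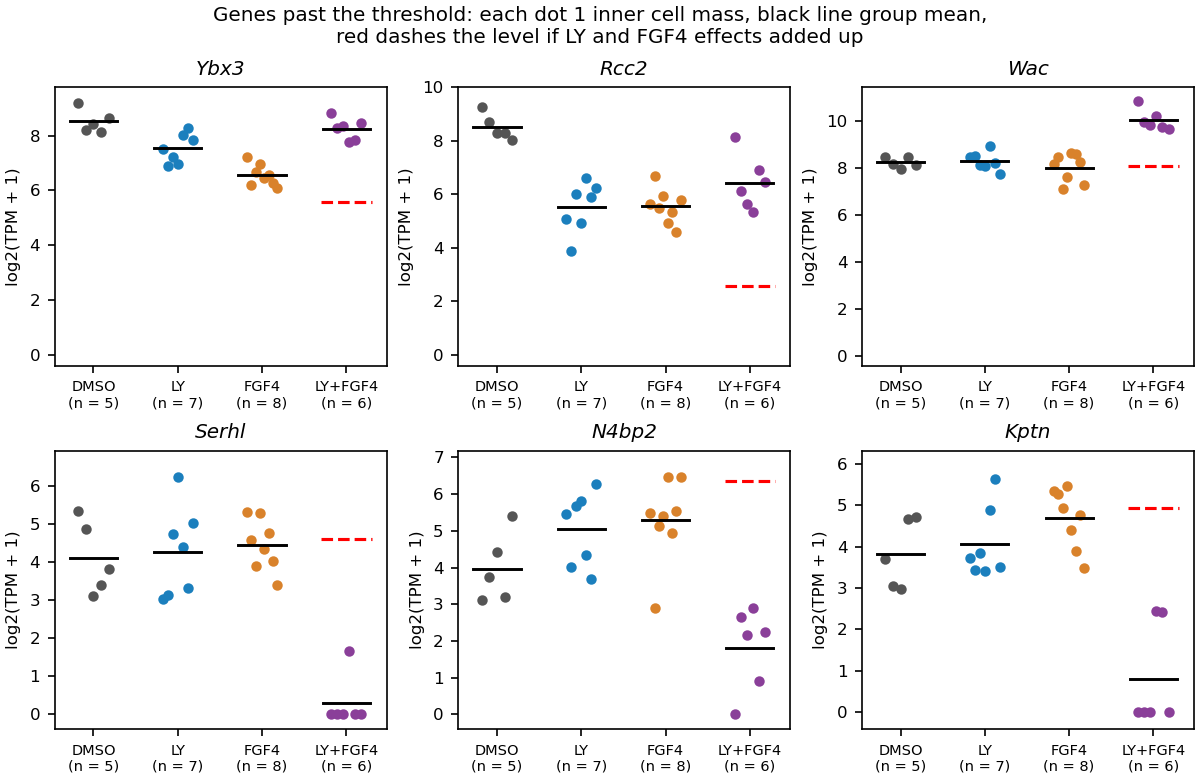
Level of the 6 genes past the threshold, in log2(TPM + 1) on the vertical axis, for each ICM (dot) in the 4 groups, with the group mean as a black line and the additive level as red dashes. Ybx3, Rcc2 and Wac under LY+FGF4 lie above the dashes and Serhl, N4bp2 and Kptn lie below them, with 5, 1 and 4 of 6 libraries of these last genes at 0.

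On GRCm38 (coordinates of GENCODE M21), Ybx3 lies on chromosome 6 from 131364855 to 131388476, Rcc2 on chromosome 4 from 140700541 to 140723220, and Wac on chromosome 18 from 7868832 to 7929028. Serhl lies on chromosome 15 from 83089506 to 83116674, N4bp2 on chromosome 5 from 65763521 to 65830108, and Kptn on chromosome 7 from 16119895 to 16127516. All are protein-coding genes, and their TPM values cover all exons of a gene. Serhl overlaps Rrp7a on the other strand with 420 identical bases of transcript. As the strandedness is not given, reads of the overlap cannot be assigned with certainty. Rrp7a itself, a ribosome biogenesis gene, had a median of 534 TPM in LY+FGF4 and a departure of 0.30. Wac has a near-identical pseudogene copy, Gm18943, whose highest value in any library was 2.39 TPM.

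Across all genes, the LY effect without FGF4 and the LY effect with FGF4 share no library. Over the 12034 genes their Pearson correlation was 0.332 and their Spearman correlation 0.306. This is a description across genes, which are not independent and which share the composition of the same libraries. In the plot of both LY effects, the called genes sit off the diagonal that marks additivity, with Ybx3 and Rcc2 on the side where the LY effect turned from lower to higher. Among the 271 genes with a positive departure at an unadjusted p under 0.05, the mean was lower with LY in the absence of FGF4 and higher with LY in its presence in 219. Among the 455 with a negative departure, the mean was higher with LY in the absence of FGF4 and lower with LY in its presence in 334. Over all 12034 genes the LY effect turned from lower to higher in 1881 and from higher to lower in 2611. LY+FGF4 was the lowest of the 4 groups in 359 of the 455 (all genes, 5096 of 12034). It was the highest in 139 of the 271 (all genes, 2126), while DMSO was the highest in 119 of the 271 (all genes, 4012). Genes with a large departure are bound to take such forms, so these counts describe the sets and test nothing.

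**Figure D2:**
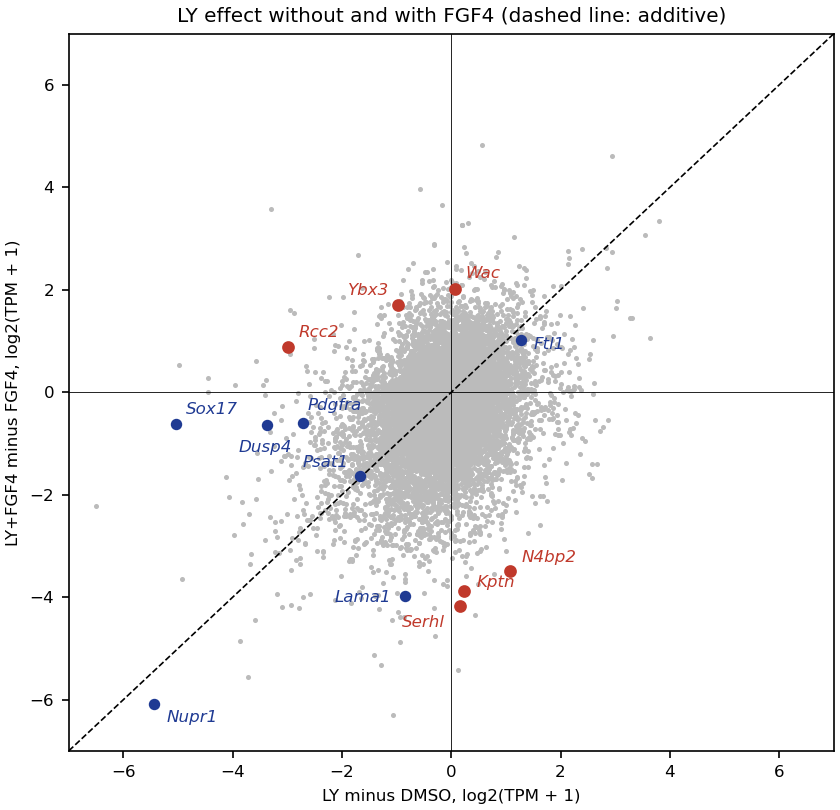
The LY effect without FGF4 (horizontal) against the LY effect with FGF4 (vertical), both as differences in log2(TPM + 1), for the 12034 genes tested (grey). Red dots are the 6 genes past the threshold, blue dots are genes discussed in the text, and the dashed diagonal marks an additive response, near which Psat1 and Ftl1 lie.

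Sox17, a transcription factor of primitive endoderm, had a larger departure on the log scale than Ybx3, Rcc2 and Wac but also a larger standard error. It stood at 11.74, 69.03, 110.34, 266.07 and 298.94 TPM in DMSO. In LY it was listed at 0 in 4 of 7 libraries, with a highest value of 21.02. With FGF4 it ranged from 431.3 to 909.92 TPM (median 663.255), and with both from 114.79 to 767.65 (median 487.165). LY libraries thus overlapped DMSO only at its low end, and LY+FGF4 libraries overlapped those of FGF4. The LY effect was -5.05 without FGF4 and -0.63 with it, and the departure of 4.42 ± 1.01 (SE) had a limma adjusted p of 0.143. It passed the threshold when DMSO replicate 7 or LY replicate 7 was left out, down to an adjusted p of 0.0241. Of 12 tested genes in the list of primitive endoderm factors 0 passed the threshold, and the median was 0.10. At an unadjusted p under 0.05 (6.03% of all genes) Sox17 and Pdgfra were positive and Foxh1 and Sox7, transcription factor genes, were negative, with departures of -2.80 and -1.69.

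For Sox17 the answer depended on the scale. Its mean was 151 TPM in DMSO and 5.35 in LY, and 667 in FGF4 and 493 in LY+FGF4. The departure in TPM was therefore -28.7 ± 133 (SE), smaller than its error and of the opposite sign. The sign also turned for Dusp4, a phosphatase gene that ERK induces and that inactivates ERK. It stood at 1.03, 16.16, 36.05, 36.37 and 52.57 TPM in DMSO, was listed at 0 in 4 of 7 LY libraries (highest 9.84), and ranged from 113.37 to 539.97 with FGF4 and from 66.96 to 352.2 with both. Its departure was 2.72 ± 0.95 on the log2 scale (limma adjusted p = 0.581) and -77.4 ± 76.5 in TPM. Pdgfra, the receptor gene of primitive endoderm, had a departure of 2.12 ± 0.85 on the log2 scale (limma adjusted p = 0.696) and -0.142 ± 102 in TPM. All 6 called genes had the same sign of departure on both scales, as did 84.5% of all tested genes. At an unadjusted p under 0.05 that share was 98.2% of the positive and 99.3% of the negative genes. The shared sign thus does not set the calls apart, and Serhl, N4bp2 and Kptn did not pass on the square root scale.

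**Figure D3:**
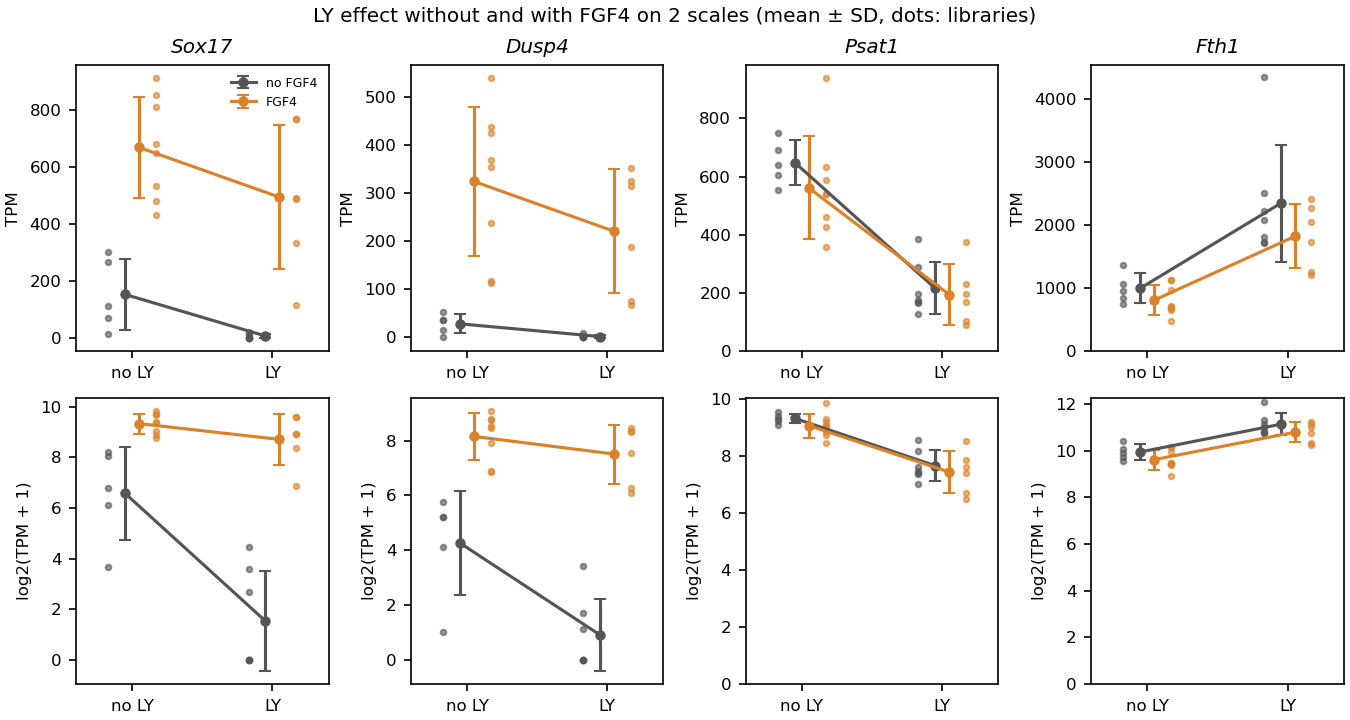
Mean ± SD (large dots and bars) and single libraries (small dots) without and with LY, in the absence (grey) and presence (orange) of FGF4, in TPM (upper panels) and log2(TPM + 1) (lower panels) for Sox17, Dusp4, Psat1 and Fth1. The lines of Sox17 and Dusp4 fall most steeply without FGF4 on the log2 scale but not in TPM, and the log2 lines of Psat1 and Fth1 run nearly parallel.

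More ERK targets had a positive than a negative departure. Of 22 tested ERK targets 16 had a positive departure (all genes, 5210 of 12034), with a median of 0.68, and 0 passed the threshold. At an unadjusted p under 0.05, 3 were positive, namely Dusp4, Phlda1 and the ETS factor gene Etv5, and 2 were negative, namely Map3k1 and Spred2. Etv5 stood at 125.04, 250.92, 265.48, 301.91 and 318.84 TPM in DMSO, 21.46 to 465.7 in LY (median 196.98), 41.01 to 518.32 in FGF4 (median 119.1) and 140.62 to 660.76 in LY+FGF4 (median 288.075). Its groups overlapped, and the departure of 1.95 ± 0.84 (SE) did not pass (adjusted p = 0.712). Phlda1 ranged from 82.9 to 128.36 TPM in DMSO, 22.13 to 120.12 in LY, 63.14 to 442.5 in FGF4 and 125.81 to 660.32 in LY+FGF4, with a departure of 1.41 ± 0.57 (adjusted p = 0.696). For Spry4, an ERK pathway inhibitor, the departure was 1.31 ± 0.81 on the log2 scale (adjusted p = 0.884) and -3.81 ± 6.73 in TPM. For Dusp6, a phosphatase of ERK, it was 1.51 ± 1.19 (adjusted p = 0.907).

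The FGF receptors gave positive values that did not pass. Fgfr2, the receptor linked to primitive endoderm, stood at 2.07, 11.28, 21.61, 37.41 and 37.67 TPM in DMSO and at 0.76 to 25.5 in LY (median 2.79). It ranged from 21.87 to 125.72 TPM in FGF4 (median 97.74) and from 47.2 to 203.37 in LY+FGF4 (median 119.41). All LY+FGF4 libraries were above all DMSO and LY libraries, and they overlapped those of FGF4. The departure was 2.19 ± 0.88 (SE, adjusted p = 0.696). Fgfr1, the receptor present across the ICM, stood at 59.06, 61.49, 62.42, 117.34 and 124.67 TPM in DMSO, 57.19 to 122.33 in LY (median 85.22), 20.05 to 128.18 in FGF4 (median 63.83) and 124.45 to 258.3 in LY+FGF4 (median 147.135). The LY+FGF4 libraries were above all LY libraries and overlapped DMSO and FGF4 only at their lowest values. Its departure was 1.35 ± 0.50 (adjusted p = 0.638), and the LY effect was 0.08 without FGF4 and 1.43 with it. Over the 24 tested receptors and members of the ERK cascade, 3 were positive and 1 negative at an unadjusted p under 0.05 (16.7%, against 6.03% of all genes), 0 passed the threshold and the median was 0.07. Of 30 tested PI3K, AKT and mTOR components 0 passed, 2 were positive and 2 negative at an unadjusted p under 0.05 (13.3%), and the median was -0.29. Insr, the insulin receptor gene, had a median of 5.1 TPM in DMSO, 7.63 in LY and 14.59 in FGF4, was listed at 0 in 3 of 6 LY+FGF4 libraries, and had a departure of -3.28 ± 1.11 (adjusted p = 0.555). Gsk3a, a kinase gene whose product AKT inhibits, had a median of 54.73 TPM in DMSO against 29.95 with LY, 16.67 with FGF4 and 37.13 with both, and a departure of 1.79 ± 0.63 (adjusted p = 0.588). Pik3cb, a catalytic subunit of PI3K, was at most 6.09 TPM in any library and listed at 0 in all 6 LY+FGF4 libraries.

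Epiblast genes could not be placed on either side. Nanog stood at 152.3, 160.01, 186.22, 194.81 and 197.95 TPM in DMSO, 101.41 to 176.54 in LY, 0 to 176.48 in FGF4 (median 8.485) and 0 to 104.79 in LY+FGF4 (median 7.12). With FGF4 alone 1 of 8 libraries, at 176.48 TPM, lay in the DMSO range and the next was at 17.42, while all 6 LY+FGF4 libraries lay below every DMSO library. The departure of Nanog was 0.15, with a 95% interval from -2.67 to 2.96. Sox2, an epiblast factor at this stage, gave 0.83 (-1.45 to 3.11) and Klf2, a naive pluripotency factor, 0.86 (-1.77 to 3.50). The embryo's own Fgf4 stood at 0 in each of the 6 LY+FGF4 libraries, so its fitted departure depends on the pseudocount and is not read as a size. These intervals leave room for departures of several-fold in either direction. By contrast Pou5f1, the pluripotency factor of the whole ICM, was resolved. It stood at 1349.83, 1439.67, 1603.86, 1653.18 and 1698.48 TPM in DMSO, 935.53 to 1460.69 in LY, 949.84 to 1495.42 in FGF4 and 538.47 to 1033.99 in LY+FGF4. Its departure was -0.14, with an interval from -0.57 to 0.29. Gata6, the early primitive endoderm factor, gave 0.68 (-0.14 to 1.51) and Gata4, a later one, 0.57 (-1.72 to 2.86). Of 16 tested epiblast genes 13 had a positive departure (81.2%, against 43.3% of all genes), 0 passed the threshold, 1 (Etv5) was positive at an unadjusted p under 0.05 (6.25%, against 6.03% of all genes), and the median was 0.23.

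**Figure D4:**
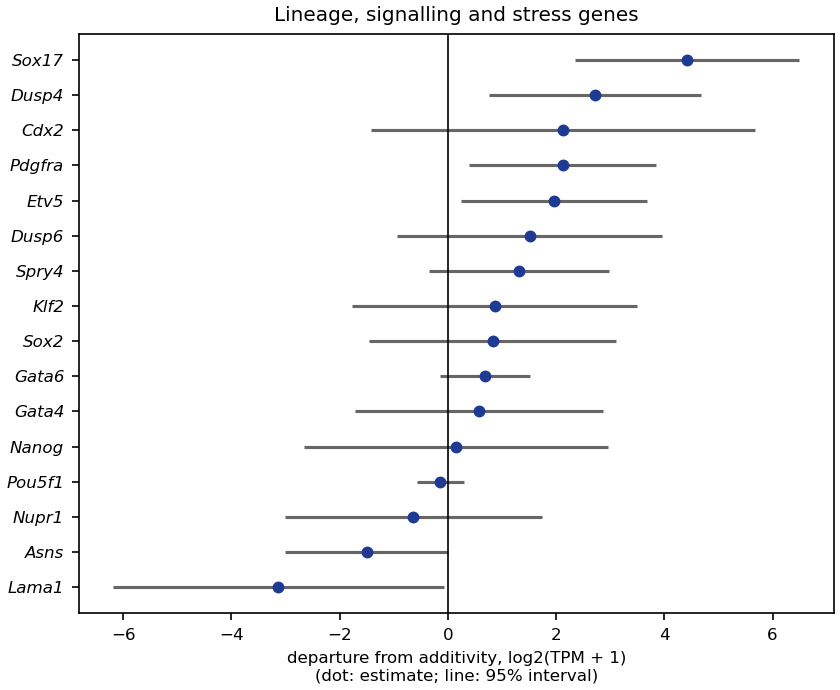
Departure from additivity (dot) with its 95% interval (line), in log2(TPM + 1), for lineage, signalling and stress genes chosen by name. The intervals of Sox17, Dusp4, Pdgfra and Etv5 lie above 0 and that of Lama1 below 0, all before adjustment for the number of genes, and Pou5f1 has the narrowest interval (-0.57 to 0.29); Fgf4 and Chac1 are not drawn because neither was detected in any LY+FGF4 library.

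Lamc1, Lama1 and Hspg2, genes of the basement membrane, gave departures opposite in sign to those of Sox17 and Pdgfra. Primitive endoderm cells lay down this matrix, whose laminins are trimers of alpha, beta and gamma chains. Lamc1, the gamma chain, stood at 14.91, 16.09, 17.13, 38.64 and 53.42 TPM in DMSO, 26.22 to 87.66 in LY (median 47.21), 60.98 to 255.17 in FGF4 (median 187.745) and 28.57 to 150.7 in LY+FGF4 (median 83.805). All FGF4 libraries were above all DMSO libraries, and the LY+FGF4 libraries overlapped the LY and FGF4 groups. The LY effect on Lamc1 was 0.84 without FGF4 and -1.04 with it, a departure of -1.88 ± 0.57 (SE, limma adjusted p = 0.461). Lama1, the alpha chain, stood at 0, 0.41, 0.45, 7.38 and 38.71 TPM in DMSO, was listed at 0 in 4 of 7 LY libraries, and ranged from 3.29 to 258.63 with FGF4 and from 0 to 29.63 with both. Its departure was -3.13 ± 1.49 (limma adjusted p = 0.803) and, in TPM, -95.2 ± 30.1. Hspg2, the perlecan gene, was listed at 0 in 5 of 7 LY and 4 of 6 LY+FGF4 libraries, had a median of 21.38 TPM in FGF4, and gave -2.63 ± 1.04 (adjusted p = 0.696). Over the whole list the signs were mixed, with 16 of 28 tested basement membrane genes negative and 12 positive (42.9%, against 43.3% positive of all genes). At an unadjusted p under 0.05, 4 of them were negative (all genes, 3.78%) and 0 positive (all genes, 2.25%), 0 passed the threshold, and the median was -0.32. Unlike those of Sox17, Dusp4 and Pdgfra, the departures of Lamc1 and Lama1 kept their sign in TPM, with -107 ± 32.1 for Lamc1.

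Lists of the amino acid and stress programme differed in the sign of their medians, again with 0 genes past the threshold. Of 17 tested ATF4 and stress genes 13 had a negative and 4 a positive departure (23.5% positive, against 43.3% of all genes), and the median was -0.54. Ddit4, an inhibitor of mTORC1 that stress induces, stood at 18.32, 91.72, 107.68, 131.43 and 143.57 TPM in DMSO, 15.25 to 107.32 in LY (median 49.2), 27.95 to 344.87 in FGF4 (median 77.825) and 0 to 43.79 in LY+FGF4 (median 5.75). Its departure was -2.94 ± 1.08 (SE, limma adjusted p = 0.63). Chac1, a glutathione-degrading enzyme gene and ATF4 target, was listed at 0 in 6 of 7 LY and in all 6 LY+FGF4 libraries, against 4.31 to 33.49 TPM in DMSO and 14.79 to 97.77 in FGF4. Asns, asparagine synthetase, gave -1.50 ± 0.74 (adjusted p = 0.825) and Nupr1, a stress-induced chromatin protein gene, -0.64 ± 1.16 (adjusted p = 0.971). Of 22 tested tRNA synthetase genes 16 had a negative and 6 a positive departure (27.3% positive), and the median was -0.32. Sars, the seryl-tRNA synthetase gene, stood at 597.27, 631.14, 737.0, 927.21 and 937.31 TPM in DMSO, 314.95 to 695.94 in LY (median 559.01), 712.88 to 1279.69 in FGF4 (median 869.865) and 150.75 to 360.25 in LY+FGF4 (median 348.25). All LY+FGF4 libraries were below all DMSO and FGF4 libraries. The departure of Sars was -1.02 ± 0.29 (SE, limma adjusted p = 0.388), and that of Kars, the lysyl enzyme, -1.21 ± 0.44 (adjusted p = 0.627).

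Within serine and one-carbon metabolism Gldc and Mthfd1l differed in sign. Gldc, a subunit of the glycine cleavage system, stood at 131.83, 164.1, 166.91, 225.73 and 255.07 TPM in DMSO, 55.28 to 182.3 in LY (median 145.35), 82.34 to 363.5 in FGF4 (median 172.875) and 251.68 to 521.02 in LY+FGF4 (median 357.595). The LY+FGF4 libraries were above all LY libraries and overlapped the upper ends of DMSO and FGF4. Its departure was 1.61 ± 0.41 (SE, adjusted p = 0.271). Mthfd1l, a mitochondrial folate enzyme gene, had medians of 9.11, 7.6 and 12.68 TPM in DMSO, LY and FGF4, was listed at 0 in 4 of 6 LY+FGF4 libraries, and gave -2.86 ± 0.88 (adjusted p = 0.496). Of the 18 tested members of that list 12 had a positive departure (66.7%, against 43.3% of all genes) and the median was 0.19. Of 12 tested amino acid transporters 7 had a positive departure and the median was 0.14. At an unadjusted p under 0.05, 3 of the 12 were positive and 2 negative (41.7%, against 6.03% of all genes). Among the positive ones Slc6a14 was at most 14.88 TPM and was listed at 0 in all 8 FGF4 libraries, so its departure depends on the pseudocount. Slc6a8, a creatine transporter gene, gave 1.69 ± 0.55 (adjusted p = 0.555). The glutamine transporter gene Slc38a2, at most 22.89 TPM and listed at 0 in 5 of 6 LY+FGF4 libraries, gave -2.35 ± 0.79 (adjusted p = 0.555).

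Several further genes came close to the threshold. On the positive side Ube2h, a ubiquitin-conjugating enzyme gene, stood at 88.04, 90.3, 94.14, 130.67 and 184.96 TPM in DMSO, 11.6 to 91.46 in LY, 0 to 21.67 in FGF4 and 19.35 to 124.67 in LY+FGF4, which is the form of Rcc2. Its departure was 4.39 ± 0.92 (SE, limma adjusted p = 0.0779), and near-identical copies make its reads uncertain, one of them, Gm2058, reaching 85.99 TPM in a LY+FGF4 library. Macroh2a1, a histone variant gene, stood at 694.76, 782.41, 855.67, 969.5 and 976.77 TPM in DMSO, 584.31 to 954.6 in LY, 192.84 to 357.67 in FGF4 and 357.65 to 724.18 in LY+FGF4. Its departure was 1.17 ± 0.26 (adjusted p = 0.129). Lmo2, a transcriptional cofactor gene, gave 4.19 ± 0.99 (adjusted p = 0.198) and had 3 of 7 LY libraries at 0. On the negative side Cptp, a ceramide phosphate transfer protein gene, was listed at 0 in 5 of 6 LY+FGF4 libraries, was at least 6.76 TPM in every library of the other groups, and gave -4.23 ± 0.89 (adjusted p = 0.0779). Fermt2, a kindlin that activates integrins, stood at 14.24, 15.64, 17.23, 19.41 and 21.61 TPM in DMSO, 31.56 to 73.57 in LY, 16.11 to 122.66 in FGF4 and 10.86 to 27.44 in LY+FGF4. All LY libraries were above all DMSO libraries, all LY+FGF4 libraries were below all LY libraries, and the departure was -2.47 ± 0.53 (adjusted p = 0.0977). Gnpda2, an amino sugar metabolism gene, was not detected in any of the 6 LY+FGF4 libraries.

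In none of the 40 gene lists did a member pass the threshold, for which the background is 0.0499% of genes. List medians ran from -1.10 for 13 genes of the MYC network to 0.69 for 17 trophectoderm genes, around the median of -0.12 for all genes. In the MYC network list 3 of 13 were negative at an unadjusted p under 0.05 (all genes, 3.78%), namely Mlxip, Mnt and Mycl, all at low TPM, and 1 was positive, Zbtb17. Of the 17 trophectoderm genes 9 had a positive and 8 a negative departure (52.9% positive, against 43.3% of all genes). None of the 17 reached an unadjusted p under 0.05, and Cdx2 gave 2.13 with an interval from -1.42 to 5.68. Lists of highly expressed genes had narrow intervals. Of 42 ribosomal protein genes 35, and of 33 respiratory chain genes 25, had a 95% interval within 1 of 0, with medians of -0.07 and -0.02. Of 26 sterol synthesis genes none had an unadjusted p under 0.05, and the median was -0.12. Autophagy genes had a median of -0.39 over 28, with Wipi2, a protein of the forming autophagosome, at -1.40 ± 0.42 (SE, adjusted p = 0.428). Wipi2 stood at 46.49, 58.21, 73.95, 81.98 and 101.69 TPM in DMSO, 149.61 to 314.93 in LY, 33.28 to 119.15 in FGF4 and 37.25 to 110.74 in LY+FGF4. All 7 LY libraries were above every library of the other groups.

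**Figure D5:**
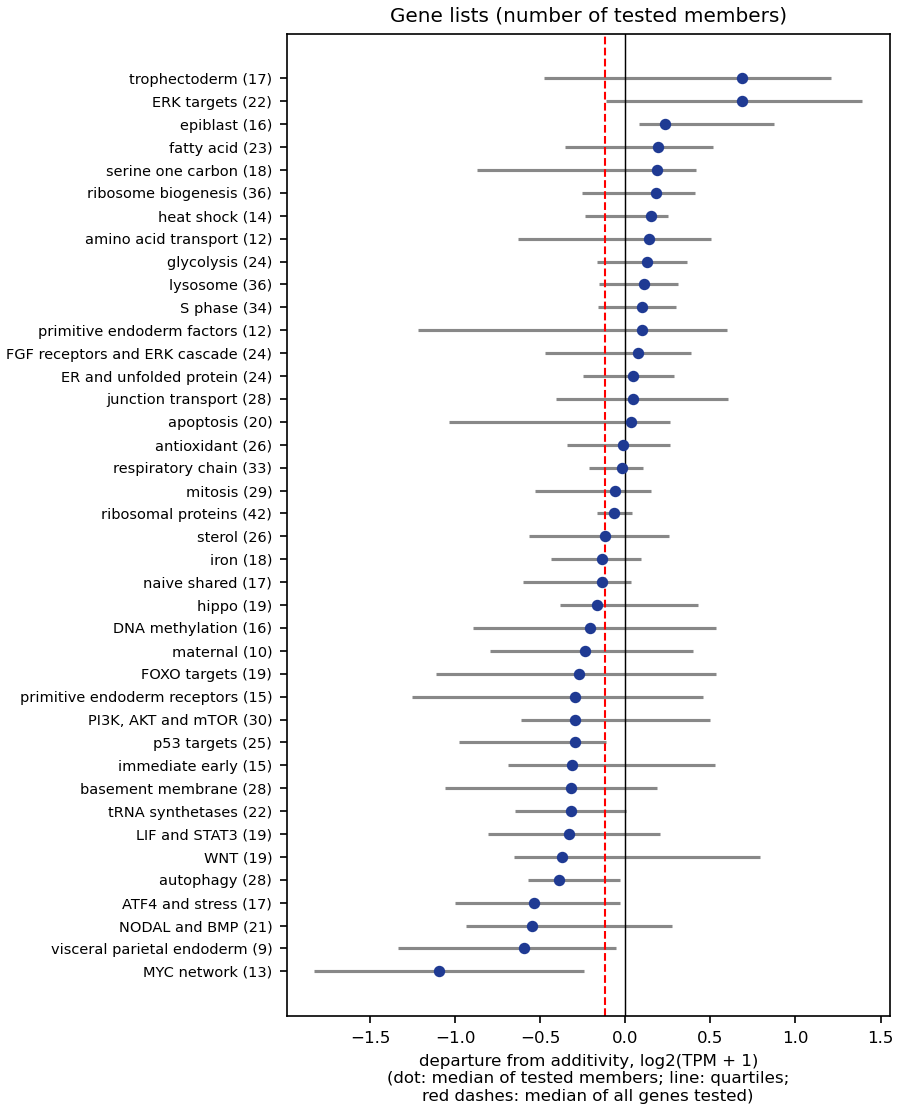
Median departure from additivity of each gene list in log2(TPM + 1) (dot, horizontal axis), with the quartiles of its tested members (line), the number of those members in brackets and the median of all 12034 genes (-0.12) as red dashes. Lists run from the MYC network (-1.10) to the trophectoderm list (0.69), and the quartiles of most lists include the median of all genes.

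Additivity within 2-fold, taken as a 95% interval of the departure within 1 of 0, could be shown for 995 of 12034 genes (8.27%). When the genes were split into 4 equal sets by mean level, these were 32.1% of the most expressed set and 0 in both of the 2 least expressed sets, where the median half-width of the interval was 1.91 and 2.28. Of the 995 genes, 35 had a fitted single effect of more than 1 in size, 11 of LY and 24 of FGF4. The examples below were picked after their values were seen. Psat1, a serine synthesis enzyme gene, stood at 554.44, 606.54, 638.17, 689.83 and 751.18 TPM in DMSO, 129.71 to 384.74 in LY (median 177.64), 357.27 to 939.65 in FGF4 (median 539.83) and 90.54 to 374.82 in LY+FGF4 (median 182.885). Every LY library was below every DMSO library, and the LY+FGF4 libraries overlapped those of FGF4 only between 357.27 and 374.82 TPM. The LY effect on Psat1 was -1.66 without FGF4 and -1.63 with it, a departure of 0.03 with an interval from -0.78 to 0.84. The ferritin chain genes Fth1 and Ftl1, which store iron, gave -0.01 (-0.67 to 0.64) and -0.27 (-0.76 to 0.23). Ftl1 stood at 1504.47, 1564.18, 1577.49, 1605.51 and 2373.23 TPM in DMSO, 3035.18 to 6302.32 in LY, 1576.67 to 2525.25 in FGF4 and 3210.14 to 5097.03 in LY+FGF4, so all libraries with LY were above all without it. Slc3a2, the heavy chain of amino acid exchangers, gave 0.32 (-0.27 to 0.91) and the threonyl-tRNA synthetase gene Tars 0.11 (-0.57 to 0.79).

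The other 24 of the 35 had the single effect with FGF4, 4 of them higher and 20 lower. Calcoco2, an autophagy receptor gene, stood at 2141.85, 2291.33, 2452.04, 2845.13 and 2988.87 TPM in DMSO, 1605.91 to 2252.85 in LY, 788.18 to 2091.74 in FGF4 and 536.81 to 1143.69 in LY+FGF4. Its departure was -0.19 (-0.72 to 0.35). Khdc3, an oocyte-derived component of the subcortical maternal complex, gave -0.10 (-0.62 to 0.43) and Dppa3, a maternal factor that protects DNA methylation, -0.17 (-0.83 to 0.50). Psap, the lysosomal saposin precursor gene, gave 0.10 (-0.55 to 0.74). Rab18, a small GTPase gene, was higher with either agent and gave -0.30 (-0.97 to 0.37), with a median of 1121.25 TPM in DMSO against 1713.98 with LY, 1997.37 with FGF4 and 3139.86 with both. All 35 genes were chosen for a narrow interval around 0, so their additivity is a description.

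Many genes with a negative departure were listed at 0 in LY+FGF4. Of the 455 genes with a negative departure at an unadjusted p under 0.05, 215 (47.3%) were listed at 0 in at least 4 of 6 LY+FGF4 libraries, against 24.6% of all tested genes and 13.7% of the 271 positive genes. On the positive side, 64 of the 271 had an additive level below 0 on the log2(TPM + 1) scale, which no measurement can reach, against 613 (5.09%) of all genes. For such genes a positive departure follows from the scale. None of Ybx3, Rcc2, Wac, Sox17, Dusp4 and Pdgfra was among them, with additive levels between 4.91 and 273 TPM.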

How the data were processed

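Per the labels, libraries of 26 single ICMs were prepared with FLASH-seq and their reads trimmed and de-duplicated. The deposited values are TPM per gene symbol, and the submitters' processing notes name STAR, RSEM and mm10. The sources used here give no tool version, annotation or strandedness. All columns add up to 999999 to 1000001 TPM, so the read depth is unknown.

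Groups follow the treatment label (the titles write CT for DMSO). limma 3.58.1 in R 4.3.3 was fitted to log2(TPM + 1) of all 26 libraries with 1 mean per group (trend and robust options), and p-values are two-sided, adjusted by Benjamini-Hochberg over 12034 genes. All adjusted p are from this test. Intervals are 95%. The script was tested on simulated data. Departures in TPM are differences of group means with no test, an alternative added after seeing the data. Where a group was listed at 0 throughout, a fitted departure depends on the pseudocount and is given only among the limits, although such genes enter list counts and medians.

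The rule for named genes took 18 genes by name, up to 10 genes per direction with the smallest p, and the 3 smallest p of each of 40 lists. Other genes were named after their values were seen. The members and lists were chosen with earlier results of these data known. Lists that are not described in the text appear in the plot of list medians. Genome positions are from GENCODE M21, which matched 53255 of 55254 symbols.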

Additional observations from a re-analysis of the deposited data

Results flagged for a closer look

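For the 6 genes past the threshold the LY effect differed between the absence and the presence of FGF4 by the interaction test itself, with departures of 2.68 for Ybx3, 3.87 for Rcc2, 1.96 for Wac, -4.34 for Serhl, -4.55 for N4bp2 and -4.12 for Kptn. Single libraries that stood apart from the rest of their group, by Dixon's ratio, were found in 12 of 152 pairs of item and group. The 38 items were named genes, on the log2 scale, and the number of genes listed at 1 TPM or more. The usual 5% by chance does not hold where all other libraries of a group are listed at 0. That was so for Chac1 in LY, Fgf4 in FGF4, and Serhl and Cptp in LY+FGF4. In DMSO, Etv5 was low in replicate 8 (125.04 TPM). In LY, Sox2 was low in replicate 7 (4.1 TPM), Asns stood apart in replicate 7 (451.13 TPM) and Chac1 was above 0 only in replicate 6 (5.64 TPM). In FGF4, Gata4 was low in replicate 6 (34.07 TPM), where Fgf4 was high (5.72 TPM), Dusp6 was listed at 0 and N4bp2 was low in replicate 2 (6.48 TPM), and Fermt2 was high in replicate 1 (122.66 TPM). In LY+FGF4, Serhl was above 0 only in replicate 6 (2.16 TPM) and Cptp only in replicate 5 (9.47 TPM), and Pitpna stood apart in replicate 5 (233.55 TPM).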

How the results depend on the processing

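The total of 6 genes past the threshold stayed between 4 and 7 in 13 of 15 other settings, though with different genes: Wac was lost with the block, without trend and robust options and without the libraries under 9000 genes. Serhl was lost with the block, a pseudocount of 5, the square root scale, quantile normalization, library weights and without those libraries. N4bp2 was lost with the block, a pseudocount of 0.1, the square root scale and the covariates for the number of genes and the Y-linked genes, and Kptn in 9 settings. It was 2 (2 positive, 0 negative) with the replicate number as a block and 28 (6 positive, 22 negative) without the libraries under 9000 genes. Leaving out 1 library at a time gave 2 to 11 in total, 2 to 5 positive and 0 to 6 negative. The negative count was 0 without DMSO replicate 8 or LY replicate 4 or 8. It was 1 without DMSO replicate 3, 6 or 7, FGF4 replicate 1, 4, 5 or 7, or LY replicate 2 or 5. The count of 3 negative genes became 1 with a pseudocount of 5, 0 on the square root scale, 5 without the trend and robust options and 1 with the Y-linked genes as a covariate, where 5 were positive (added after seeing the data). Libraries that share a replicate number were not treated as pairs in the main fit. Their residuals were not alike (31 pairs, median correlation -0.00406, none over 0.1, and 2 of 24 libraries closest to their own number). Whether such libraries shared a processing step was not tested. The unadjusted split of 271 positive and 455 negative genes became 354 and 346 after quantile normalization and 487 and 345 with the number of genes as a covariate. Median centring gave 239 and 549. The median of all genes moved from -0.12 to -0.03, 0.02 and -0.18 in these settings.

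Some departures changed sign. Nanog was -0.43 with a pseudocount of 0.1, -0.0639 with library weights, -0.41 with the trophectoderm score as a covariate, -0.0709 with the Y-linked genes and -2.45 without the libraries under 9000 genes, and -0.59 to 0.76 when 1 library was left out. The fitted value of Fgf4, listed at 0 in all LY+FGF4 libraries and not a size, was -0.16 with a pseudocount of 0.1, -0.36 with the replicate block and -0.0024 (without DMSO replicate 9) to 0.55 when 1 library was left out. Gata4 was -0.32 with a pseudocount of 5 and -1.34 on the square root scale, where Klf2 was -0.0633. Without the libraries under 9000 genes Sox2 was -0.52, Klf2 -1.21, Cdx2 -0.32, Fos 0.21, Hyou1 -0.12, Ndufa2 -0.0359, Tjp1 0.15, Tead2 0.27 and Dnajb1 -0.0194. In TPM itself, with no test, the sign turned for Klf2 (-30.7), Pou5f1 (15.3), Gata4 (-45.9), Sox17 (-28.7), Pdgfra (-0.142), Dusp4 (-77.4), Spry4 (-3.81), Capg (31.2), Gdf3 (0.62), Fdft1 (11.9), Msmo1 (56.2) and Scd2 (24.4). The causes were not tested. Depth is unknown, and with 5 to 8 libraries a group the median gene has an interval half-width of 1.78.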
